A study of Mus musculus with 20 samples.

Results

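The promoters described here were those of autosomal protein-coding genes in mouse liver at which reduced representation bisulfite sequencing (RRBS) measured only a few CpGs. A promoter was taken when 3 to 12 CpGs within 1 kb of the annotated gene start had at least 10 reads in each of the 20 libraries. The rule was met by 3423 promoters, which were 16.4% of 20807 genes and 31.01% of the 11038 promoters with 3 or more such CpGs. Another 7615 promoters had more than 12, and 9769 genes had fewer than 3 and were not tested. RRBS cuts DNA with MspI at CCGG and sequences the short fragments after bisulfite, which converts unmethylated cytosine, so a methylation level is the share of reads at a CpG that stayed unconverted. A promoter's level in a library was the sum of methylated reads over its measured CpGs divided by the sum of all reads, in percent.

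The livers came from C57BL/6J offspring labelled male, in 4 groups of 5. Con-d0 and Con-d21 pups had dams on control diet without stress. AME-d0 and AME-d21 pups had dams in an adverse maternal environment (AME), a Western diet from before pregnancy through lactation combined with stress in the last part of pregnancy. The d0 pups were delivered by Caesarean section, and the d21 pups had stayed with their dam in culled litters and were fasted before the liver was taken. The study drew the animals of each group from 5 litters. The design asks how promoter methylation changes from birth to weaning under each maternal environment and whether the environments differ at either age.

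DNA methylation at promoters follows their CpG content. Promoters in CpG islands are dense in CpGs and usually stay unmethylated in every cell type, whether or not the gene is used. Promoters with few CpGs often belong to genes of one cell type, and are usually methylated where the gene is silent and less methylated where it is used. Liver at birth still holds many blood-forming cells, which leave it in the following weeks while hepatocytes mature. In bulk liver, a change in the share of a cell type and a change of methylation within cells cannot be told apart.

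Few measured CpGs did not mean few CpGs in the sequence. In the reference genome the 3423 promoters held a median of 66 CpGs within 1 kb of the start, and a median of 11.2% of a promoter's CpGs were measured. By 500-bp windows of this sequence, 437 of the promoters (12.8%) were low in CpG, 1174 (34.3%) were intermediate and 1812 (52.9%) were high in CpG. The low-CpG class had no window with an observed-to-expected CpG ratio of 0.48 or more, and the high-CpG class had a window with a ratio of at least 0.75 and at least 55% G and C. The name CpG-poor therefore held for what was measured, and by sequence for 437 of the promoters, so the set is called sparsely measured promoters. Of 6554 genes with a low-CpG promoter, 6104 (93.1%) had fewer than 3 measured CpGs, so most such promoters lie outside the set. Promoters just inside the rule, with 3 CpGs, averaged 33.8% in Con-d0 and those just outside, with 2 CpGs, 43.6%, while promoters with 12 and 13 CpGs averaged 4.51% and 3.48%.

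Libraries held 23248139 to 45769589 reads summed over CpGs, and the median promoter had 180 to 357 reads, depending on the library. Of the measured CpG entries, 70.1% lay downstream of the gene start, 49.7% in an annotated exon, 26.3% in an intron of the gene and 23.9% upstream outside exons. The gene start is the outermost 5′ end of the annotated gene, and 694 promoters (20.3%) had the minority of their gene's annotated transcript starts within 1 kb of it. At 567 promoters (16.6%) measured CpGs lay within another protein-coding gene, and 513 shared CpGs with another protein-coding promoter. AME-d21 replicate 4 had 2.88 reads on X for every 100 on autosomes, where the other libraries had 1.395 to 1.55, and 16.2 reads on the short arm of Y for every 1000000, where the others had 168 to 216, which goes against its male label. AME-d0 replicates 1 and 3 had the lowest mean promoter methylation of the 20 libraries. The AME counts of rises and falls and the mean age difference over all promoters are given with and without these libraries. Other values are given so only in part.

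Sequences of 8 of the most changed promoters show what was measured. They are from the GRCm38 (mm10) reference, outside annotated exons, written 5′ to 3′ on the gene's strand, with the measured CpGs in capitals. The 250 bases upstream of Tnfsf13 at chr11:69685785-69686034 (minus strand) and of Plekhs1 at chr19:56461390-56461639 (plus strand) belong to promoters that lost methylation from birth to weaning, and those of Smim5 at chr11:115899716-115899965 (plus strand) to one that gained it.
Tnfsf13: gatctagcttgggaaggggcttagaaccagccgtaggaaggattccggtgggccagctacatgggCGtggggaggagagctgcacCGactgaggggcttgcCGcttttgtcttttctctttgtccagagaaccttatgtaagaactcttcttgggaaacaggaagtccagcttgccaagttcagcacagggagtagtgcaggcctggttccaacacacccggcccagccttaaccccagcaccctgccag
Plekhs1: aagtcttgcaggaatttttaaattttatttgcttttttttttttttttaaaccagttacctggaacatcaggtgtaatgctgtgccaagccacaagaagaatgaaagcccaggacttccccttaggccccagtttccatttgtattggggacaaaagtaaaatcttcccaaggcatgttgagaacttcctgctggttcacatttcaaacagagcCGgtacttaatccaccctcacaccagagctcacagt
Smim5: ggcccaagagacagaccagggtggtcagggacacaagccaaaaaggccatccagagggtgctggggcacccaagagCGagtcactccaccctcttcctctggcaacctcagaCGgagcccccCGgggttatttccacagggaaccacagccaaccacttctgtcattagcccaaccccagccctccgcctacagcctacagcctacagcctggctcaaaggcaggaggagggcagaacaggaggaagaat

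In the Tnfsf13 window 3 of 6 CpGs were measured, at 184, 164 and 148 bases before the start. They averaged 38.7%, 34.3% and 55.6% in Con-d0 and 2%, 0.909% and 1.497% in Con-d21. The measured CpG of the Plekhs1 window, 36 bases before the start, averaged 35.04% ± 9.73 in Con-d0 and 5.301% ± 3.41 in Con-d21 (SD, n = 5). In Smim5 the CpGs at 174, 138 and 128 bases before the start averaged 22.8%, 15.8% and 7.89% in Con-d0 and 79.9%, 68.7% and 37.4% in Con-d21, so neighbouring CpGs moved the same way by unequal amounts.

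Most measured CpGs lay downstream of the start, and 5 further stretches, chosen after the values were seen, hold measured CpGs of other strongly changed promoters. The stretches of Fpgs at chr2:32703204-32703389, Lcat at chr8:105942995-105943182 and Rbp7 at chr4:149454257-149454437 (all minus strand) are intronic and lost methylation. That of Dok3 at chr13:55528625-55528771 (minus strand) is intronic, holds 2 of its 7 measured CpGs, the other 5 being exonic, and gained it, and that of Fxyd7 at chr7:31052354-31052445 (minus strand) lies upstream and gained it.
Fpgs: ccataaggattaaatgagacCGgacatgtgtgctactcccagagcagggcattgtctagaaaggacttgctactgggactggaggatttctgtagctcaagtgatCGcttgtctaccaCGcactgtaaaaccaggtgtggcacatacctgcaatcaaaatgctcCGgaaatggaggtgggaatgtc
Lcat: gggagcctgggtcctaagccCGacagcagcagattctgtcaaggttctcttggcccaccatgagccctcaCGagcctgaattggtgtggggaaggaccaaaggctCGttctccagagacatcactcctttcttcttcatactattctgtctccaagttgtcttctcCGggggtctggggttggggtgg
Rbp7: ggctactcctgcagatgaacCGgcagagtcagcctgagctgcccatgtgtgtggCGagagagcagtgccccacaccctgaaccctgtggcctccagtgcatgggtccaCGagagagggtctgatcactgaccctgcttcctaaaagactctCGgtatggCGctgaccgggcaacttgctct
Dok3: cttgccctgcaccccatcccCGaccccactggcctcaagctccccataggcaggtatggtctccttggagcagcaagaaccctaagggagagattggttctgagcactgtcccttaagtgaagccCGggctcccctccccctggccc
Fxyd7: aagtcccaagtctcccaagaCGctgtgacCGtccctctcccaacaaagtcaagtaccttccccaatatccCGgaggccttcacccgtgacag

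The 4 measured CpGs of the Lcat stretch stood between 58.8% and 74.99% in Con-d0 and between 24.6% and 34.7% in Con-d21. The 5 CpGs of Rbp7 reached unequal levels in Con-d21, 11.2% at 650 bases after the start and 60.95% at 701 bases. The CpGs within each of these stretches moved in one direction, which the choice of strongly changed promoters made likely.

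Most sparsely measured promoters were close to unmethylated. In Con-d0, 2501 of the 3423 (73.1%) were under 10%, 798 (23.3%) were between 10 and 80% and 124 (3.62%) were over 80%, and the median was 0.6802%. Levels differed by sequence class. The low-CpG promoters averaged 49.1% ± 1.05 over the Con-d0 libraries (SD, n = 5), the intermediate ones 18.98% ± 0.297 and the high-CpG ones 3.47% ± 0.083. The 7615 promoters with more than 12 measured CpGs averaged 1.74% ± 0.0419. Within the set the mean was 33.8% at promoters with 3 measured CpGs and 4.51% at those with 12, while the share with high-CpG sequence was 29.9% and 76.2%.

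Methylation was lowest around the gene start. In the high-CpG class, CpGs in the 250 bases before the start averaged 1.304% in Con-d0 and those 750 to 1000 bases before it 22.4%. The intermediate class averaged 35.95% in the farthest upstream bin and 12.2% in the 250 bases after the start. In the low-CpG class the lowest bin, the 250 bases before the start, still averaged 38.5%. The bins hold different promoters, so these profiles describe the measured CpGs and not single promoters.

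**Figure D1:**
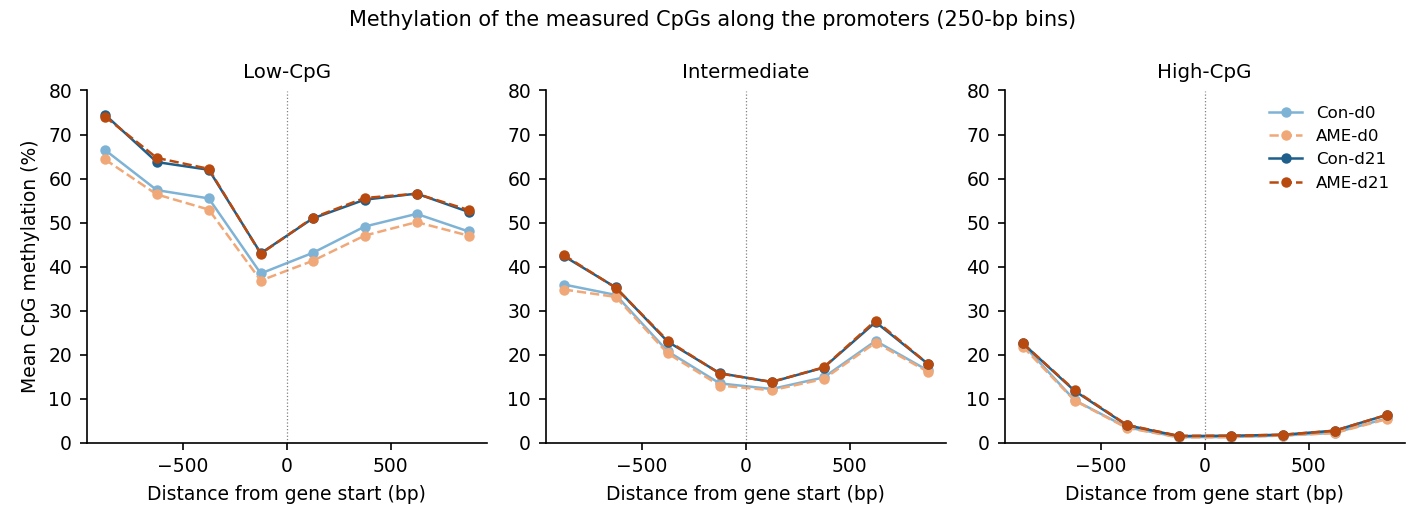
Mean methylation (%) of the measured CpGs in 250-bp bins by distance from the gene start (bp), for the low-CpG, intermediate and high-CpG classes, with 1 line for each of the 4 groups. The lines dip around the start, to 38.5% in Con-d0 for the low-CpG class and 1.304% for the high-CpG class, and the d21 lines lie above the d0 lines in every low-CpG bin.

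From birth to weaning the sparsely measured promoters gained methylation on average in both maternal environments. The Con-d0 libraries averaged 14.5, 14.5, 14.6, 14.4 and 15.1% and the Con-d21 libraries 16.3, 16.5, 16.6, 16.6 and 16.6%, a difference of 1.92 points with no overlap. The AME-d0 libraries averaged 13.6, 14.5, 13.9, 14.3 and 14.6% and the AME-d21 libraries 16.6, 16.6, 16.7, 16.5 and 16.5%, a difference of 2.42 points, also without overlap. The gain in Con was 6.43 points for the low-CpG class, 2.48 for the intermediate class and 0.475 for the high-CpG class, and in AME 8.41, 2.99 and 0.615 points. Without AME-d0 replicates 1 and 3 the AME difference over all sparsely measured promoters was 2.15 points, and without AME-d21 replicate 4 it was 2.44 points. In points the median difference over the sparsely measured promoters was only 0.0603 in Con and 0.0704 in AME, far below the mean gains. On the log2 scale of the test the median difference over all 11038 promoters was 0.19 in Con and 0.22 in AME, and over the sparsely measured ones 0.27 and 0.32. Near 0% the log2 ratio also depends on the number of reads, since 1 is added to each count.

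**Figure D2:**
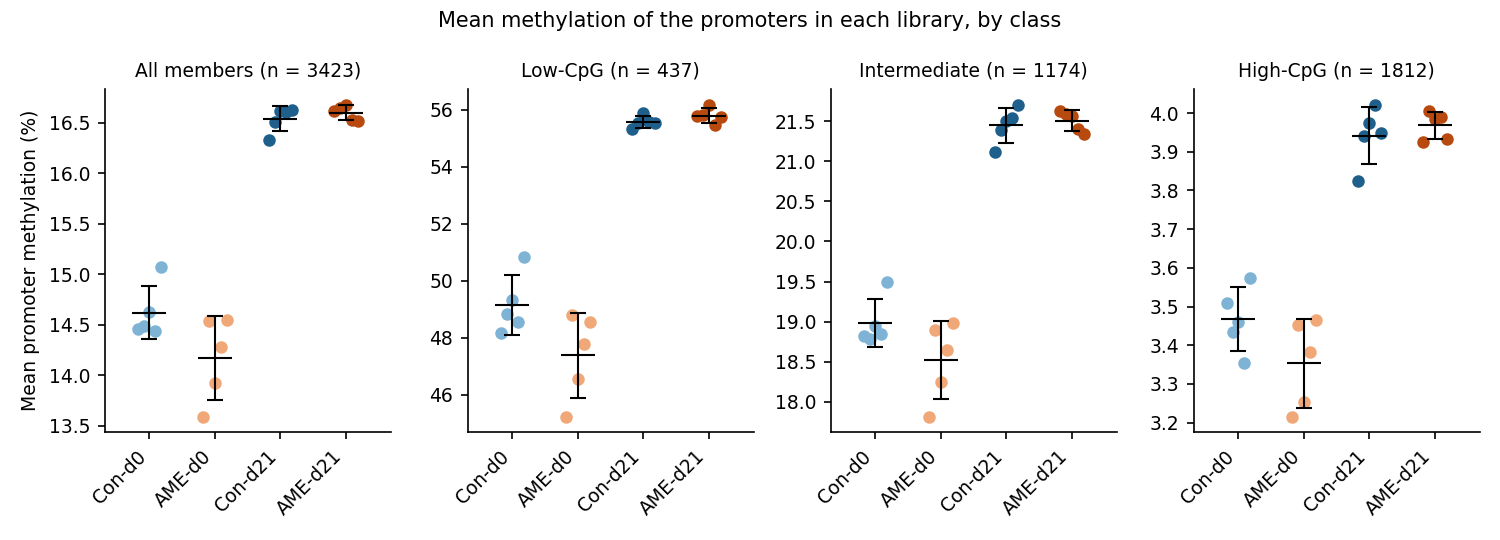
Mean promoter methylation (%) of each library in the 4 groups, for all 3423 promoters and for the 3 sequence classes. Points are libraries, the horizontal mark and bar are the group mean and SD (n = 5), and the vertical axes differ and do not start at 0. All d21 libraries lie above all d0 libraries in each panel, and AME-d0 replicate 1 is the lowest point, at 13.6% over all promoters.

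Promoter by promoter, 286 sparsely measured promoters rose and 84 fell from Con-d0 to Con-d21. A promoter was called when its adjusted p was below 0.05 in limma on the log2 ratio of methylated to unmethylated reads, fitted over all 11038 promoters, and its group means differed by at least 10 points. Of all promoters tested 3.01% rose and 0.824% fell, against 8.36% and 2.45% of the sparsely measured ones. With the adjusted p alone, 528 were higher and 136 lower in Con (15.4% and 3.97%, against 11.6% and 2.98% of all 11038). In AME the adjusted p alone gave 579 and 121 (16.9% and 3.53%, against 12.4% and 2.47% of all 11038). With both criteria 339 of the 3423 rose in AME offspring and 67 fell, which was 9.9% and 1.96% of them, while 3.5% and 0.67% of all 11038 promoters did. The Con and AME comparisons use different libraries, and 241 promoters rose in both, which was 84.3% of the Con list and 71.1% of the AME list. There were 66 that fell in both, 78.6% of the Con list and 98.5% of the AME list. The 286 rises and 84 falls called in Con all had the same sign in AME, with medians over the rises of 17.4 points in Con and 18.6 in AME, and over the falls of -25.4 and -23.9. Without AME-d0 replicates 1 and 3, AME rises numbered 230 and falls 60, and without AME-d21 replicate 4 they numbered 318 and 64.

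**Figure D3:**
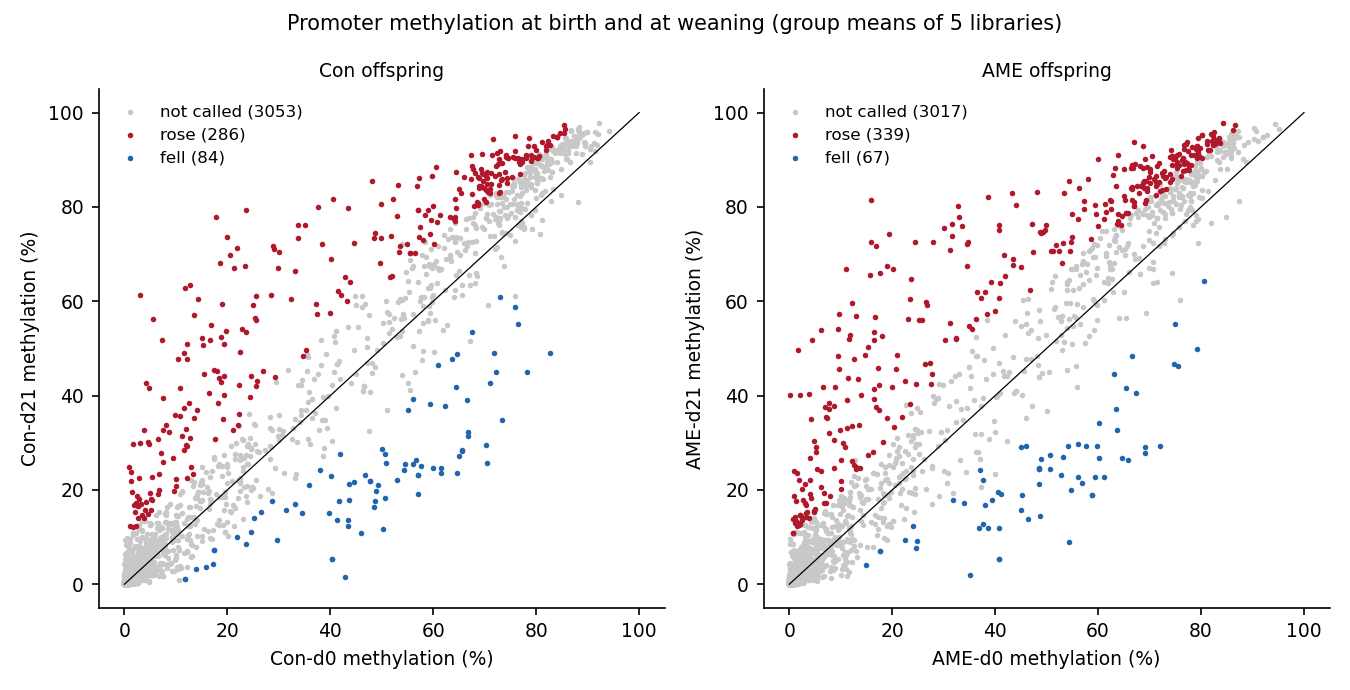
Group mean methylation (%) of each of the 3423 promoters at d0 (horizontal) and d21 (vertical), for Con on the left and AME on the right, with the promoters that rose in red, those that fell in blue and the line of equality. In Con the 286 that rose lie above the line and the 84 that fell below it, and no promoter moved from under 10% to over 80%.

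The calls were unevenly spread over sequence classes and starting levels. Of the 437 low-CpG promoters 131 (29.98%) rose and 42 (9.61%) fell in Con, of the 1174 intermediate ones 128 (10.9%) and 36 (3.07%), and of the 1812 high-CpG ones 27 (1.49%) and 6 (0.331%). Grouped by their level in AME-d0, which the Con comparison did not use, 219 of 813 promoters between 10 and 80% rose and 80 fell, against 57 and 3 of 2518 under 10%. A promoter under 10% in Con-d0 cannot fall by 10 points, and 92.7% of the high-CpG class was under 10% there. The threshold therefore limits these counts. With the adjusted p alone, 248 promoters under 10% in AME-d0 were higher and 42 lower, against 232 and 93 between 10 and 80%. By class, 47 low-CpG, 58 intermediate and 31 high-CpG promoters were then lower. Between Con-d0 and Con-d21, 157 promoters passed from the middle range to over 80%, 101 from under 10% to the middle range, and 39 from the middle range to under 10%. Of the called promoters, 75 (20.3%) had the minority of the gene's transcript starts within 1 kb, against 20.3% of the whole set.

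The 10 largest falls in Con, among promoters whose Con-d0 and Con-d21 libraries did not overlap, were at Slc23a1, Tnfsf13, F2, Eif4ebp3, Fpgs, Plekhs1, Fgb, Lcat, Gm42417 and Rbp7. Slc23a1, a sodium-dependent vitamin C transporter, had 10 measured CpGs and stood at 72.3, 66.8, 68.3, 75.1 and 69.6% in Con-d0 and at 28.02, 24.9, 28.6, 14.8 and 32.6% in Con-d21. The difference was -44.6 points (log2 ratio -2.80 ± 0.31 SE, adjusted p = 3.24e-05, limma), and in AME it was -41.2 points. Tnfsf13 encodes the cytokine APRIL, and its 3 CpGs, shown above, stood at 57.4, 49.2, 40, 32.05 and 35.8% in Con-d0. In Con-d21 they stood at 0, 0, 3.33, 0.9804 and 3.03%, and 33 to 111 reads per library lay behind these values. F2, prothrombin (window chr2:91635414-91637414), fell at 7 exonic CpGs, from 71.2, 58.4, 64.97, 60.5 and 67.6% to 24.7, 22.5, 25.9, 24.02 and 21.1% (log2 ratio -2.55 ± 0.26 SE, adjusted p = 1.67e-05, limma). In these 3 promoters every d0 library was above every d21 library in AME as well, while in Con the choice required it.

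Fgb, the beta chain of fibrinogen (window chr3:83048863-83050863), fell from 61.6% ± 4.59 to 23.7% ± 10.9 in Con and from 61.1% ± 6.55 to 22.7% ± 6.56 in AME (SD, n = 5). Lcat, which esterifies plasma cholesterol, fell from 65.1% ± 6.51 to 27.2% ± 9.61. Fpgs, which adds glutamate to folates, fell from 73.3% ± 1.66 to 34.8% ± 4.86, and 3 of the gene's 10 transcripts start within 1 kb. The other 4 fell by similar amounts. Eif4ebp3, a repressor of translation, fell from 70.2% to 29.5%, Rbp7, a retinol-binding protein, from 65.6% to 28.3%, Plekhs1 from 50.2% to 11.7% and the predicted gene Gm42417 from 56.96% to 19.13%. All 10 were also called in AME. The CpGs of Tnfsf13 also lie within the annotated gene Tnfsfm13, those of Gm42417 within Ankrd39 and those of Eif4ebp3 within AC115631.1.

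The 10 largest rises were at AI467606, Dnajb3, Dok3, Cd79b, Fxyd7, Abcg8, Cbfa2t3, Gimap1, Nfam1 and Smim5. AI467606 (window chr7:127090359-127092359) stood at 18.8, 18.5, 25.7, 10.1 and 16.3% in Con-d0 and at 73.8, 80.9, 77.1, 74.5 and 83.1% in Con-d21, a difference of 60 points (log2 ratio 3.99 ± 0.32 SE, adjusted p = 2.81e-06, limma). Cd79b, a signalling chain of the B-cell receptor, went from 16.9, 17.6, 23.4, 23.1 and 18.8% to 66.1, 75.4, 80.7, 73.4 and 72.3%. Dok3, an adaptor of B cells and myeloid cells, went from 23.7% ± 5.17 to 79.2% ± 5.11. Several of the others are also known from blood cells. Cbfa2t3, a corepressor of blood progenitors, went from 12.7% to 63.4%, Gimap1, a GTPase of lymphocytes, from 18.6% to 68.2%, and Nfam1, an immune receptor, from 21.8% to 71.3%. These 10 too were chosen among promoters whose Con-d0 and Con-d21 libraries did not overlap, and all 10 were also called in AME.

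Dnajb3, a chaperone gene used mainly in testis (window chr1:88204782-88206782), was the only one of the 10 with a high-CpG sequence. Its 10 exonic CpGs stood at 1.43, 3.85, 3.704, 4.15 and 1.79% in Con-d0 and at 48.1, 56.2, 70, 70 and 62.6% in Con-d21, and they lie inside the Ugt1a gene cluster, which encodes glucuronidating enzymes. In AME the level went from 1.61% ± 0.923 to 49.8% ± 5.49. Abcg8, a subunit of the transporter that moves sterols into bile, went from 6.86, 5.71, 2.101, 6.53 and 6.49% to 58.4, 45.8, 61.6, 53.1 and 62.6%. This start has 1 of the 3 annotated Abcg8 transcript starts within 1 kb, and its 8 measured CpGs lie within Abcg5, the other subunit of the transporter, so the values are not of the start of the other Abcg8 transcripts. In the same way the CpGs of Fxyd7 lie within Fxyd1, those of Smim5 within Recql5, those of Cbfa2t3 within Gm20388 and those of Gimap1 within Gm28053.

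**Figure D4:**
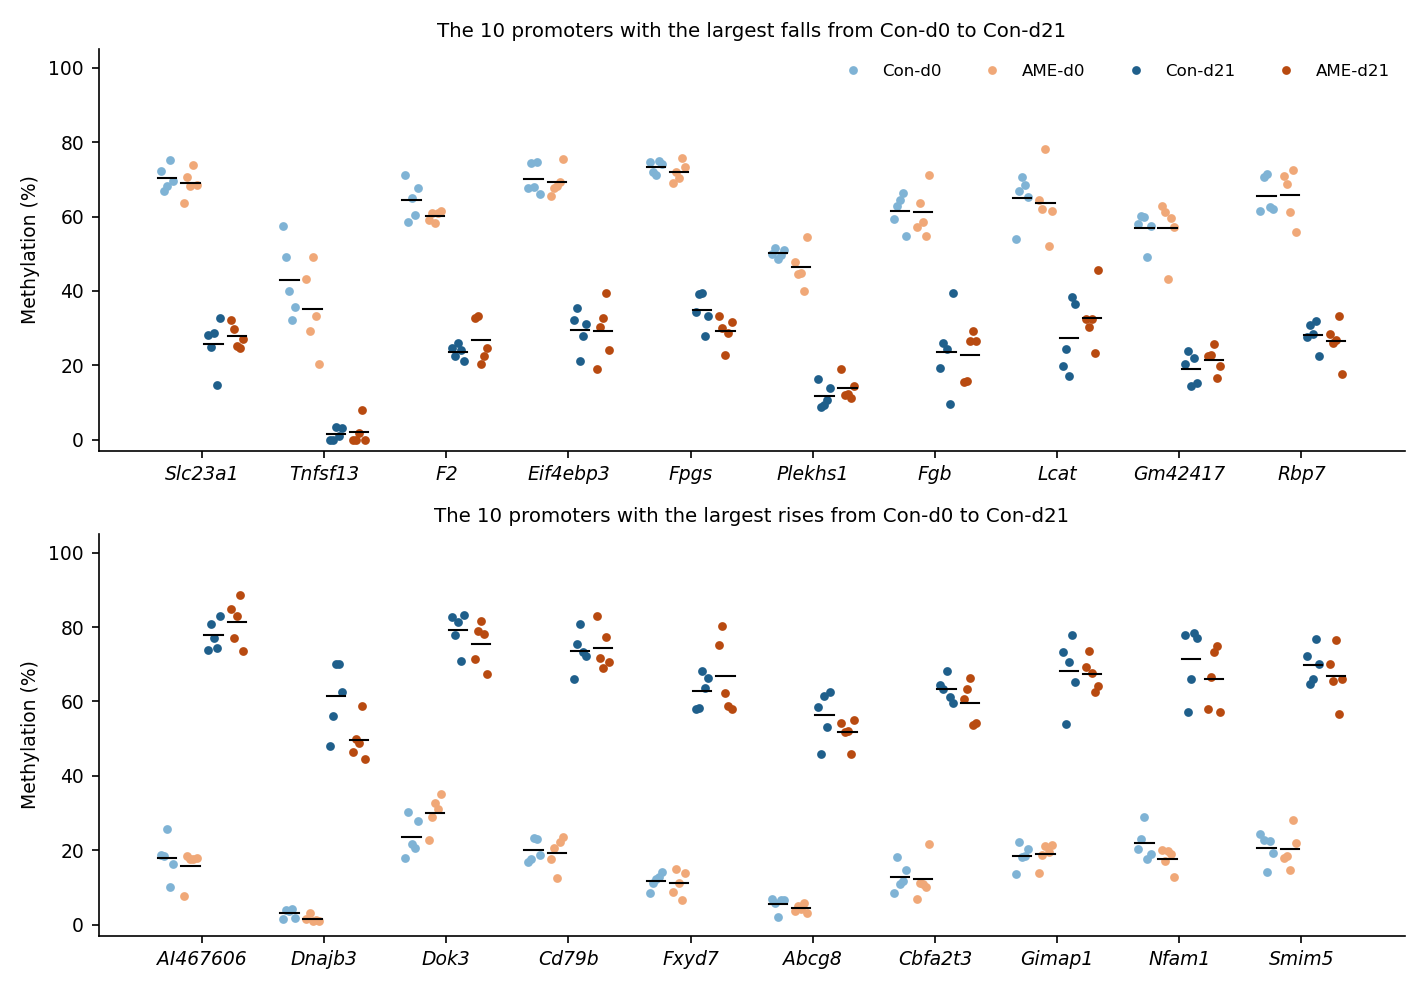
Methylation (%) of the 10 promoters with the largest falls and the 10 with the largest rises in Con. Points are the 5 libraries of each group and black marks are the means. The promoters were chosen among those whose Con-d0 and Con-d21 libraries did not overlap. Tnfsf13 is at 1.47% on average in Con-d21.

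Among genes that hepatocytes use to make plasma proteins, all 5 sparsely measured promoters fell in Con and in AME. For comparison, here and in the liver lists below, 9.84% of the sparsely measured promoters between 10 and 80% in AME-d0 fell in Con. The share was 9.61% of the low-CpG ones and 0.824% of all 11038 promoters. They were Lcat, Apoc2 (an apolipoprotein, from 54.3% to 24.2% in Con, with CpGs within Gm44805), Ambp (a precursor of a plasma protease inhibitor, from 49.3% to 21.04%), Lect2 (a secreted liver protein, from 46.7% to 23.1%) and Serping1 (the C1 inhibitor, from 21.9% to 10%). Their library means were 45.5 to 49.4% in Con-d0 and 16.9 to 24.9% in Con-d21. The median difference was -28.3 points, against 0.0175 points over all 11038 promoters. The list holds 71 genes, most of which had fewer than 3 measured CpGs. Lect2 in AME (adjusted p = 0.0215, limma) had an adjusted p of 0.0539 without AME-d0 replicates 1 and 3.

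Of 10 promoters of coagulation and complement genes, 5 fell and none rose in Con, with the same 5 in AME. The share of falls in Con among promoters between 10 and 80% in AME-d0 was 9.84%, as given above. Besides F2 and Fgb these were Proz, a vitamin K-dependent plasma protein, from 61.5% ± 2.13 to 24.6% ± 3.55, F7, coagulation factor VII, from 41.7% ± 1.83 to 17.7% ± 4.86, and Cpn1, a plasma carboxypeptidase, from 40.2% to 22.99%. Those not called were Klkb1 (67.1% and 51.7% in Con-d0 and Con-d21), Cfb (60.1% and 49.2%), C8b (80.7% and 74.2%), Masp1 (7.44% and 1.81%) and C1rb (6.09% and 6.84%).

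Of 13 promoters of sugar and amino acid enzymes, 6 fell and 1 rose in Con, and 4 fell in AME. Pck1, which commits carbon to glucose synthesis, stood at 55.6, 64.04, 56.1, 52.5 and 60% in Con-d0 and at 27.3, 19.8, 23.5, 24.2 and 30.97% in Con-d21, with no overlap. Fbp1, a later enzyme of the same pathway, fell from 65.6% ± 5.09 to 28.4% ± 6.11, and Ftcd, an enzyme of histidine breakdown, from 78.2% to 45.04%. Ldhd, a D-lactate dehydrogenase, fell from 43.7% to 17.8%, and Aldh4a1, an enzyme of proline breakdown, from 33.1% to 17.1%. Prodh2, which breaks down hydroxyproline, fell from 50.6% to 18.4% in Con and was at 40.01% and 23.3% in AME-d0 and AME-d21 (adjusted p = 0.0671, limma). Without AME-d0 replicates 1 and 3 it was called in AME too, with a difference of -24.02 points (adjusted p = 0.0169, limma). Dao, D-amino acid oxidase, was the one that rose, from 74.3% to 85.2%. Arg1, the last enzyme of the urea cycle, was at 10.7% and 0.893%, under the 10 points required.

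Lipid and bile acid genes were mostly near 0 at both ages. Of 15 promoters Abcg8 rose, and Klb and Acot4 fell. Klb, the co-receptor for the hormones FGF21 and FGF15, stood at 43.01, 48.2, 54, 47.1 and 50.8% in Con-d0 and at 17.3, 20.4, 16.7, 14.6 and 19.3% in Con-d21. Acot4, an acyl-CoA thioesterase, fell from 11.7% ± 7.12 to 1.05% ± 0.374 at 3 CpGs shared with a neighbouring promoter, and was at 8.44% and 2.97% in AME. The list median in Con-d0 was 2.02%. Acaca, acetyl-CoA carboxylase of fatty acid synthesis, was at 2.296% ± 1.796 in Con-d0, 2.59% ± 0.409 in AME-d0, 2.59% ± 1.02 in Con-d21 and 2.09% ± 1.95 in AME-d21, and was not called in any comparison.

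Of 21 promoters of cytochrome P450, conjugation and transport genes, 1 fell in Con, and Adh6b and Cyp4f40 rose, from 78.4% to 92.9% and from 70.7% to 83.2%. In AME 4 rose and none fell. Of all sparsely measured promoters 8.36% rose in Con and 9.9% in AME, and of all 11038 promoters 3.01% and 3.5%. None of 4 promoters of hepatocyte transcription factors and receptors (Rora, Rxra, Met and Nr1h3) was called, and their means were 1.99% or lower in every group. Of 4 promoters of fetal liver genes only Ldha, at an intronic stretch with 1 of 15 transcript starts within 1 kb, was called, rising from 48.2% ± 11.5 to 85.6% ± 4.13. Pkm, the pyruvate kinase of fetal liver, had no methylated read in any d0 library, where 3 reads of all those in Con-d0 would be 0.321%. It was at 5.42, 5.38, 5.33, 1.85 and 3.09% in Con-d21 and at 5.56, 6.86, 3.33, 2.45 and 3.75% in AME-d21, under the 10 points required.

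**Figure D5:**
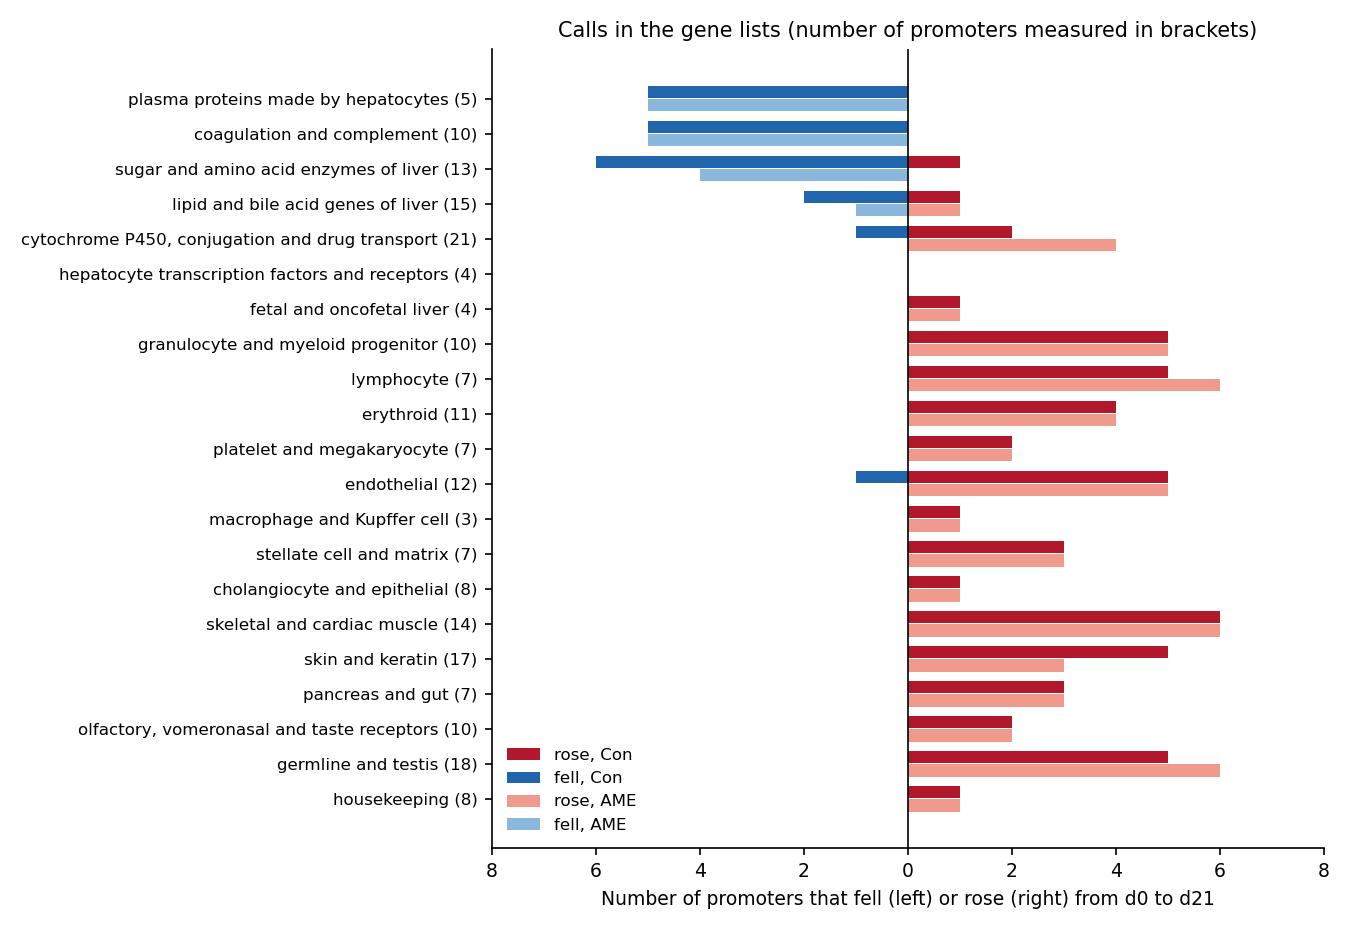
Number of promoters in each gene list that fell (to the left) or rose (to the right) from d0 to d21, in Con and in AME, with the number of sparsely measured promoters of the list. The plasma protein list has 5 falls and no rise, and the calls in the blood and endothelial cell lists are mostly rises.

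Some promoters of blood cell genes rose and the rest were not called. For comparison, 26.9% of the sparsely measured promoters between 10 and 80% in AME-d0 rose in Con, and 29.98% of the low-CpG ones. In the granulocyte and myeloid progenitor list 5 of 10 rose in Con and in AME, and none fell. Itgal, an integrin of white blood cells, went from 22.5, 20.1, 23.1, 15.3 and 25.6% in Con-d0 to 72.6, 66.9, 68.8, 68.3 and 58.6% in Con-d21. Csf3r, the receptor for G-CSF, went from 19.8% ± 4.65 to 53.6% ± 4.14, and Vav1, a signalling protein of blood cells, from 14.04% ± 2.71 to 37.04% ± 4.26. Lyl1, a transcription factor of blood progenitors whose CpGs lie within Nfix, went from 1.62% ± 1.16 to 29.6% ± 9.28, and Cebpe, a factor of granulocyte maturation, from 68.1% to 87.2%. Kit, Gfi1 and Cd34, which blood progenitors use, were at 0.165% and 0.434%, 0.619% and 1.304% and 0.545% and 0.791% in Con-d0 and Con-d21, and were not called.

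Of 7 lymphocyte promoters 5 rose in Con and 6 in AME. Besides Cd79b these included Lat, an adaptor of the T-cell receptor, from 37.6% ± 3.38 to 79.9% ± 2.86 in Con, and Ubash3a, a regulator of T-cell signalling, from 49.9% ± 3.65 to 80.5% ± 1.88. Of 11 erythroid promoters 4 rose. Cldn13, which red blood cell precursors use, went from 53.1% to 84.7%, Gypc, a red cell membrane protein, from 1.37% to 21.9%, and Trim10 from 69.6% to 85.4%. Rhd, the Rhesus antigen, went from 38.2, 54.5, 61.04, 52.2 and 54.7% to 80.7, 81.5, 84.8, 81.9 and 79.8%, without overlap. The other 7 were at 2.05% or lower in Con at both ages, Klf1, the erythroid master regulator, among them. Of 7 platelet and megakaryocyte promoters Pf4 (platelet factor 4, from 22.8% to 54.04%) and P2rx1 (an ATP-gated channel, from 12.1% to 47.7%) rose.

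Most promoters of genes of the other liver cell types were not called. For comparison, 3.01% of all 11038 promoters rose in Con. Of the sparsely measured ones, 26.9% of those between 10 and 80% in AME-d0 and 29.98% of the low-CpG ones did. Of 12 endothelial promoters 5 rose in Con, Tie1 (from 29.8% ± 8.33 to 67.1% ± 7.06), Rasip1 (from 38.3% to 72.1%, with CpGs within Izumo1), Plvap, Eng and Lmo2, and Notch4 fell from 55.03% to 36.99%. Of 3 macrophage and Kupffer cell promoters Cd300a rose from 23.6% to 53.6%, and Adgre1, the F4/80 antigen, was at 70.9% and 82.7% (adjusted p = 0.0667, limma). Of 7 stellate cell and matrix promoters Tagln, Pdgfrb and Col1a2 rose, from 33.1% to 66.5%, from 6.49% to 30.9% and from 22.3% to 42.2%. Tagln in AME rose from 31.2% to 55.5% (adjusted p = 0.027, limma), with an adjusted p of 0.161 without AME-d0 replicates 1 and 3. Of 8 cholangiocyte and epithelial promoters only Cldn4 was called, rising from 41.5% to 62.2%, while Epcam and Prom1 were at 0.956% and 2.26% and at 5.87% and 6.79% in Con. These lists name genes by the cell type known for them, and the part of cell shares in these changes was not tested.

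Promoters of genes of other organs, which liver uses little or not at all, mostly started over 50%, and a minority of those measured rose. The shares that rose in Con in the skin, germline and receptor lists were no higher than that among all low-CpG promoters, given above. Those in the muscle list, 6 of 14, and in the pancreas and gut list, 3 of 7, were higher. Of 14 muscle promoters 6 rose, among them Myog, which switches on muscle genes, from 67.3% to 90.95%, and Tnni2, a fast-muscle troponin, from 67.3% to 85.98%. Acta1, skeletal actin, was at 38.7% and 39.8%, and Mb, myoglobin, at 68.3% and 66.01%. Of 17 skin and keratin promoters 5 rose in Con and 3 in AME, Krt26 from 71.5% ± 4.47 to 91.1% ± 1.77 in Con. Of 18 germline promoters 5 rose in Con, among them Brdt, a bromodomain protein of sperm cells, from 84.6% to 95.6%, and Adam2, a sperm surface protein, from 18.8% to 42.9%. Of 10 olfactory, vomeronasal and taste receptor promoters Taar4 and Olfr1342 rose, from 75.8% to 95.04% and from 18.4% to 43.7%, and of 7 pancreas and gut promoters Mep1b, Atp4b and Cpb1 rose. None fell in these 5 lists. Of 8 housekeeping promoters only Ldha was called, Chmp2a, with CpGs within Ube2m, was at 67.1% and 63.5%, and the other 6 were at 0.245% or lower in Con at both ages.

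Among high-CpG sequences 27 promoters rose and 6 fell. The falls included Josd2, a deubiquitinating enzyme, from 71.1% to 42.6%, and Gfer and Noxo1, genes that share 4 of their measured CpGs, from 64.5% to 41.9% and from 62.4% to 37.8%. The rises included Dkkl1, a gene of testis, from 29.98% to 70.4%, Pnma1 from 4.81% to 41.5%, Flvcr1, a haem exporter, from 3.86% to 32.6%, and Il10ra, a receptor for interleukin 10, from 8.05% to 33.8%. These genes were chosen from the high-CpG calls after their values were seen.

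Short motifs in the 250 bases upstream of the start were counted on both strands. GTTAAT, a part of the sequence bound by HNF1, a hepatocyte transcription factor, was in 15 of the 84 promoters that fell in Con (17.9%), in 11 of the 286 that rose (3.85%) and in 3.63% of all 11038 promoters. AGATAAG, a sequence bound by GATA factors, was in 12 of those that rose (4.196%), in 1 of those that fell (1.19%) and in 1.57% of all. GAGGAAGT, bound by the blood cell factor PU.1, was in 3.497%, 1.19% and 1.78%, and TATAAA in 12.9%, 13.1% and 6.21%, in the same order. Within the 437 low-CpG promoters GTTAAT was in 7 of the 42 that fell (16.7%) and in 8 of the 131 that rose (6.11%). It was in 6.41% of all 437. Its share among falls was thus closer to the background within the class than over all promoters. In that class AGATAAG was in 7.63% of those that rose, 2.38% of those that fell and 5.72% of all. GAGGAAGT was there in 7 of the 131 that rose, in 0 of the 42 that fell and in 2.75% of all, and TATAAA in 12.2%, 7.14% and 11.7%, so the shares of AGATAAG and TATAAA among rises were closer to the background within the class than over all promoters. A match is a stretch of letters, and binding was not measured.

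At birth the comparison of AME with Con gave no call. With limma none of the 3423 promoters passed in AME-d0 against Con-d0 in either direction (0.0% of all 11038), and 142 had an unadjusted p below 0.05, which was 4.15% of them against 5.2% of all tested. The quasi-binomial model also called none, with 127 at an unadjusted p below 0.05. The smallest p were at Tbx3, Snx19, Acy1, Lyl1 and Atp8b2, each with an adjusted p of 0.738 in limma, and all 5 promoters averaged 1.62% or lower in both groups. Tbx3, a T-box transcription factor, was at 1.47, 1.04, 1.34, 2.51 and 0.514% in Con-d0 and at 0.388, 0, 0, 0.292 and 0% in AME-d0. Lyl1 was at 0.901, 0.962, 0.781, 3.53 and 1.91% in Con-d0 and at 0, 0, 0, 0.529 and 0% in AME-d0. Snx19, a sorting nexin, had the opposite order, with 0.0373% ± 0.0834 in Con-d0 and 0.3601% ± 0.0493 in AME-d0. At 8 promoters every AME-d0 library was above every Con-d0 library and at 11 every one was below, 0.234% and 0.321% against 0.245% and 0.426% of all tested. Without AME-d0 replicates 1 and 3 none was called either.

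Means of nearly all 21 gene lists, not only of blood and endothelial ones, were lower in AME-d0, although none of their promoters was called. Only the stellate cell list (9.54% in Con-d0 and 9.86% in AME-d0) and the skin list (62.9% and 63.8%) were higher. The coagulation list averaged 49.1% in Con-d0 and 46.55% in AME-d0, and the germline list 58.2% and 56.5%, both with overlap of libraries. The 10 myeloid promoters averaged 11.6, 13.6, 12.7, 12.9 and 13.2% in the Con-d0 libraries and 9.85, 10.99, 10.2, 10.8 and 11.2% in the AME-d0 libraries, without overlap. The 12 endothelial promoters averaged 18.04, 19.7, 17.3, 17.5 and 20.5% in Con-d0 and 14.1, 15.7, 15.5, 16.6 and 17% in AME-d0, also without overlap. In both lists this necessarily holds for AME-d0 replicates 2, 4 and 5 alone too, so leaving out replicates 1 and 3 is no further check. The myeloid and endothelial lists were the only ones of 21 without overlap at d0. The 11 erythroid promoters overlapped, at 13.99 to 17.6% and 12.3 to 14.3%, with a median difference of -0.0159 points. The lymphocyte list overlapped too, at 45.6 to 48% and 41.7 to 46.2%, as did the platelet list, at 3.83 to 6.47% and 3.475 to 5.7%. The macrophage list averaged 31.9% in Con-d0 and 31.5% in AME-d0. By promoter, Rhd was at 52.1% ± 8.45 in Con-d0 and 32.9% ± 8.39 in AME-d0 (adjusted p = 0.764, limma), Eng, an endothelial receptor, at 19.3% ± 5.94 and 9.504% ± 3.22 (adjusted p = 0.78) and Vav1 at 14.04% ± 2.71 and 7.75% ± 2.9 (adjusted p = 0.824). At d21 the myeloid means overlapped, at 27.2 to 29.3% in Con and 28.7 to 30.2% in AME, as did the endothelial ones, at 28.6 to 32.8% and 30.7 to 32.4%. These lists were singled out after their values were seen, and no test was made on their means. The naming rule for this comparison, the smallest p, did not pick Rhd, Eng and Vav1. Over the whole lists the median difference of AME-d0 from Con-d0 was smaller, -0.887 points in the myeloid list and -2.52 in the endothelial list. The mean of all sparsely measured promoters was 14.6% ± 0.264 in Con-d0 and 14.2% ± 0.415 in AME-d0, with overlap, a difference of -0.443 points that was -0.163 points without AME-d0 replicates 1 and 3. The part of that difference, or of cell shares, in the list means was not tested.

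At weaning the comparison of AME with Con gave no call either. In AME-d21 against Con-d21 limma called 0 of 3423 in each direction (0.0% of all tested), with 176 at an unadjusted p below 0.05 (5.14%, against 5.36% of all tested), and the quasi-binomial model called 0, with 103. The library means were 16.5% ± 0.125 in Con-d21 and 16.6% ± 0.0715 in AME-d21. The smallest p were at 4921504E06Rik, Imp4, Ccdc115, Pop4 and Olfr705, with limma's adjusted p from 0.7 to 0.755. Olfr705, an olfactory receptor, was at 68.6, 73.1, 74.6, 69.6 and 71.2% in Con-d21 and at 85.5, 79.8, 83.8, 84.2 and 81.8% in AME-d21, without overlap and 11.6 points apart (log2 ratio 0.94 ± 0.24 SE, adjusted p = 0.755, limma). It was 1 of 11 with every AME-d21 library above every Con-d21 library, and 10 had the reverse, while 0.263% and 0.272% of all tested promoters did. Leaving out AME-d21 replicate 4 gave 11.3 points and an adjusted p of 0.574 in limma. The other 4 promoters averaged 0.9198% or lower in both groups, Imp4 and Ccdc115, which share 11 CpGs, with no methylated read in Con-d21.

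The interaction of age and maternal environment, which tests whether the change with age differed between them, gave no call. Fitted over all 20 libraries with limma it called 0 of 3423 (0.0% of all tested), with 146 at an unadjusted p below 0.05 (4.27%, against 4.99% of all tested), and the quasi-binomial model called 0, with 86. The smallest p were at Lyl1, Tbx3 and Cebpzos, with limma's adjusted p of 0.591, 0.591 and 0.594. Lyl1 gained 28.01 points in Con and 40.05 points in AME, where AME-d21 stood at 32.5, 46.3, 34.1, 45.1 and 42.7%. Between 10 and 80% methylation, the median SD of a promoter over the 5 libraries of a group was 4.17 to 4.62 points, which limits the differences that could be called with 5 libraries a group.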

How the data were processed

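Liver DNA of 20 offspring was measured by RRBS with reads of 51 bp. Of tools, the notes of the submitters list BWA, Bismark, Trim Galore and FastQC without versions, and the build mm10, and deduplication and merging of strands are not given in the sources used here. For each CpG the authors deposited counts of methylated and of all reads, and a percent methylation that was not used for the tests. Positions without CG in the reference (0.0698 to 0.119% of entries) were left out.

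A CpG needed 10 or more reads in each library, and these CpGs were assigned to autosomal protein-coding gene starts of GENCODE M21 within 1 kb, and counts were summed per promoter and library. The main test was limma 3.58.1 (R 4.3.3) on log2 of methylated plus 1 over unmethylated plus 1 reads, over all 11038 promoters with 3 or more CpGs, in the 10 libraries of a comparison, or in 20 for the interaction, with Benjamini-Hochberg adjustment. The scripts were tested on simulated data. Other steps used Python 3.11.15, numpy 2.4.6, pandas 2.3.3 and matplotlib 3.10.9. Promoters holding the sum of as few as 30 reads per library limit precision, and floors of 3 reads cover counting error only, since reads of PCR products are not independent molecules.

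Members and gene lists were chosen with earlier results of these data known. Named were the 10 largest rises and falls in Con without overlap of libraries, up to 4 promoters per list by the size of the Con difference, the smallest p where fewer than 5 were called, and Acaca, which the study names; other list members are named for completeness, and the high-CpG examples after their values were seen. Some promoters that the rule picks, and 1 sequence, are not reported here. Alternatives changed the coverage, the window, the added reads, the model, the libraries, the centring, the depth and the promoters kept.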

Additional observations from a re-analysis of the deposited data

Results flagged for a closer look

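AME-d21 replicate 4 had 2.88 reads on X for every 100 on autosomes, outside the promoters compared here, where the other libraries had 1.395 to 1.55. The other results below are single libraries that stood apart from the other 4 of their group by Dixon's test at 95%, which chance alone meets in about 1 group in 20. Of 16 groups of library means 1 did, the mean of the intermediate class in Con-d0 replicate 5 (19.5%, the others 18.8 to 18.9%). Of 432 groups over the 108 named promoters 27 did (6.25%), at 21 promoters.

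Libraries below the rest were AI467606 in AME-d0 replicate 1 (7.76%, the others 17.5 to 18.4%), Abcg8 in Con-d0 replicate 3 (2.101%, the others 5.71 to 6.86%), Adh6b in Con-d21 replicate 3 (85.9%, the others 93.2 to 95.9%), Ambp in Con-d0 replicate 5 (41.9%, the others 50 to 52.2%), F7 in Con-d0 replicate 2 (38.5%, the others 41.9 to 42.8%), Gm42417 in Con-d0 replicate 4 (49.1%, the others 57.6 to 60.1%), Gm42417 in AME-d0 replicate 3 (43.1%, the others 57.1 to 62.8%), Myog in Con-d0 replicate 1 (61.6%, the others 67.97 to 69.4%), Myog in AME-d0 replicate 1 (49.7%, the others 64.8 to 69.5%) and Myog in AME-d21 replicate 1 (76.6%, the others 85.4 to 88.1%). The 3 of Myog were all replicate 1, in Con-d0, AME-d0 and AME-d21. Libraries above the rest were Acot4 in Con-d21 replicate 1 (1.71%, the others 0.775 to 0.952%), Olfr1298 in AME-d21 replicate 2 (88.4%, the others 77.8 to 80%), Rora in Con-d21 replicate 2 (2.45%, the others 0.595 to 1.04%), Slc40a1 in Con-d0 replicate 3 (2.62%, the others 0.444 to 0.952%) and Tnfsf13 in AME-d21 replicate 4 (8.06%, the others 0 to 1.67%). The 12 others were 1 library with methylated reads where the other 4 had none: Acy1 in Con-d0 replicate 5 (0.241%), Acy1 in AME-d21 replicate 3 (0.348%), Ccdc115 in AME-d0 replicate 1 (0.376%), Cebpzos in AME-d0 replicate 5 (0.134%), Imp4 in AME-d0 replicate 1 (0.376%), Lyl1 in AME-d0 replicate 4 (0.529%), Nr1h3 in AME-d21 replicate 5 (0.276%), Polr2a in Con-d0 replicate 5 (0.159%), Polr2a in AME-d0 replicate 4 (0.605%), Snx19 in Con-d0 replicate 3 (0.187%), Tubb5 in Con-d0 replicate 4 (0.599%) and Tubb5 in AME-d0 replicate 5 (0.775%).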

How the results depend on the processing

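Neither the mean differences nor the calls of the named promoters changed direction. Signs of promoters not called could change. Chmp2a in AME differed by -3.37 points without AME-d0 replicates 1 and 3 and by 3.7 points without AME-d21 replicate 4. Counts moved by over 1.5 times under 3 settings. At least 20 reads per CpG gave 141 rises and 49 falls in Con and 165 and 44 in AME, a window of 500 bp gave 178 rises and 49 falls in Con and 214 and 42 in AME, and an adjusted p alone gave 528 rises and 136 falls in Con and 579 and 121 in AME. The first 2 select other promoters, 3582 with at least 20 reads. The mean gain became 2.63 points in Con and 3.31 in AME with at least 5 reads, 0.941 and 1.204 with 20 reads, 1.397 and 1.76 with the 500-bp window, and 2.23 in Con over promoters sharing no CpG. Leaving out each library in turn gave 247 to 278 rises and 74 to 82 falls in Con, 290 to 327 and 58 to 64 in AME, 0 calls between AME and Con at either age and 0 for the interaction. The mean differences were then 1.88 to 2.04 points in Con, 2.28 to 2.52 in AME, -0.536 to -0.296 at d0 and 0.00779 to 0.0816 at d21. The median-centred libraries gave 219 rises and 91 falls in Con and 262 and 75 in AME, libraries thinned to equal depth 275 rises and 77 falls in Con and 351 and 66 in AME, and, chosen after seeing the data, promoters with at least 50% of transcript starts within 1 kb 224 rises and 71 falls in Con and 265 and 56 in AME. Of the promoters reported by name, calls lost most often were those of Cpb1 in Con (13 settings), Sycp1 in Con (10), Tagln in AME (10), Cyp4f40 in Con (7), Lect2 in AME (7) and Acot4 in Con (4). Without AME-d0 replicates 1 and 3, Adh6b, Brdt, Cldn4, Col1a2, Lect2 and Tagln lost their call in AME, and Prodh2 gained one. The cause was not tested. Promoters with few reads, and the 5 libraries a group, limit what could be called.

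The labels number replicates 1 to 5 in each group without saying that a number marks a shared litter or day. Same-numbered libraries correlated at -0.056 to 0.036 in their deviations from the group means, and 5 of 20 correlated best with their own number, so the numbers were not taken as a pairing. With the replicate block there were 241 rises and 73 falls in Con and 301 and 63 in AME, and 0 calls between AME and Con at either age and for the interaction.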
